A study of Xenopus laevis with 12 samples.

Results

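The genes described here are the cell cycle and DNA replication genes of Xenopus animal caps, taken by gene symbol. This part of the data was chosen with earlier results of these data known. Symbols of cyclins A, B, D and E, Cdk, Cdc, Mcm, Orc, Bub, Mad2, Aurora, Plk, E2F and GINS genes and of pcna, cdt1, gmnn, wee1 and the Chek kinases were taken from the annotation of the array after the .L or .S ending of the homeologs had been removed. In total, 85 of 6505 gene names fitted that pattern. After 5 names that begin with cdc42, a GTPase of the cytoskeleton and its partners, had been left out, 80 genes remained. Where a gene had several probe sets the brightest over all arrays, by mean log2 signal, stood for it, and 36 of the 80 genes had more than 1 of the 128 probe sets. Another 4 probe sets that fitted the pattern carry the symbols of both homeologs and were left unnamed.

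Animal caps are the pluripotent ectoderm of the blastula, and on their own they form epidermis. RNA of pools of 12 caps, dissected at stage 9, was measured on 12 Affymetrix Xenopus laevis arrays in 4 groups of 3. Untreated caps of uninjected embryos (C) were compared with uninjected caps cultured in 10 ng/ml activin and 0.0001 M retinoic acid (AcRA), an inducer of mesoderm and a patterning signal that together induce pronephric tissue. Embryos of the other 2 groups were injected at the 2-cell stage with 800 pg of lhx1-AS, a DEED-modified antisense oligonucleotide against lhx1 RNA, and their caps were cultured without (lhx1-AS) or with both factors (lhx1-AS/AcRA). Experiments I, II and III each gave 1 array to every group. A p-value here rests on how far pooled-cap RNAs, 1 per experiment, lay from their group means. That spread was pooled over the 4 groups and drawn toward a trend over all probe sets. Differences between experiments add to it unless the experiment is fitted as a block. The labels put the harvest at sibling stage 12.5, and the paper puts it later. All embryos were wild type as far as the labels tell.

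In the early frog embryo the cell cycle runs as rapid alternations of DNA synthesis and mitosis on maternal RNA and protein, and it slows and gains gap phases and checkpoints from the midblastula on. Origins of replication are licensed when the origin recognition complex, Cdc6 and Cdt1 load the Mcm helicase, geminin keeps Cdt1 from loading it again, and Cdc45 and GINS turn the helicase on. Cyclins with their kinases, restrained by Wee1 and released by Cdc25, drive the cell into DNA synthesis and mitosis, and E2F factors switch on many of the genes of DNA synthesis.

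No array group was injected with a control oligonucleotide. Effects through lhx1 and other effects of injection therefore cannot be told apart in any comparison below. The signal of lhx1 itself was 19.8, 2.19 and 2.60 on C arrays (here and below in the order of experiments I to III) and 316, 823 and 779 on AcRA arrays. Arrays labelled lhx1-AS had signals of 1.55, 42.6 and 3.20, and those labelled lhx1-AS/AcRA 1144, 991 and 1614. The targeted RNA was therefore not lower on arrays labelled lhx1-AS/AcRA than on AcRA arrays, where it could be read (log2 difference 1.06, SE 1.05, limma adjusted p = 0.62), and every direction given below is that of the arrays as labelled. All arrays had been scaled to 1 trimmed mean, 500.1, while their median signals ran from 124 to 149 (C), from 129 to 138 (AcRA), from 106 to 122.6 (lhx1-AS) and from 107 to 121 (lhx1-AS/AcRA). Marker lists of other cell types differed between the groups. The summed signal of 13 epidermal markers was 68681 to 82993 on C, 63654 to 69982 on lhx1-AS, 38591 to 53664 on AcRA and 5147 to 20515 on lhx1-AS/AcRA arrays. For 8 organizer markers the ranges were 237 to 600 on C, 922 to 1220 on lhx1-AS, 585 to 1374 on AcRA and 11476 to 24061 on lhx1-AS/AcRA arrays. The sums of 6 endoderm markers (686 to 985 on C, 346 to 530 on lhx1-AS, 3239 to 5272 on AcRA, 11979 to 15134 on lhx1-AS/AcRA arrays) and of 10 maternal and egg RNAs (1086 to 2538, 816 to 1522, 1213 to 3874 and 7024 to 9678) were also highest there. On lhx1-AS/AcRA arrays most of the latter sum was vegt (6117, 7300 and 8130). Signals of vegt were 2.19, 31.1 and 60.2 on C and 448, 2743 and 1214 on AcRA arrays. It was thus called higher with AcRA in uninjected caps (log2 difference 6.16, limma adjusted p = 0.000801). The high sum therefore does not show a rise of the listed RNAs as a group. Over the 10 RNAs 5 were above 0 in lhx1-AS/AcRA minus AcRA (median 0.18) and the 1 called, zp2, was lower (-3.52, limma adjusted p = 0.0319). In the order C, lhx1-AS, AcRA and lhx1-AS/AcRA, 12 mesoderm markers, the targeted lhx1 among them, summed to 165 to 397, 223 to 417, 5750 to 8663 and 7689 to 10068. On lhx1-AS/AcRA arrays eomes alone had 4340, 4253 and 6873, whereas 7 of the 12 markers were below 0 in lhx1-AS/AcRA minus AcRA (median -1.16), with 2 called higher and 1, wnt8a, lower. The 7 neural markers summed to 578 to 1011, 932 to 2083, 1161 to 2742 and 2951 to 3561. Yet 4 of the 7 were below 0 in lhx1-AS/AcRA minus AcRA (median -0.64). There 2, pax6 and ncam1, were called lower and 1, zic1, higher. In the same order of groups, 3 markers of multiciliated cells summed to 1270 to 2355, 614 to 2029, 123.1 to 217 and 21.5 to 70.7. In lhx1-AS minus C 0 of 13 epidermal and 0 of 8 organizer markers were called (3 epidermal markers were lower and 2 organizer markers higher at an unadjusted limma p under 0.05, a threshold at which all probe sets were not counted), whereas in lhx1-AS/AcRA minus AcRA 6 of 13 epidermal markers were called lower and 1, krt19, higher (2.73, limma adjusted p = 0.0107), and 6 of 8 organizer markers were called higher. Of the other lists, 1 of 6 endoderm markers was called lower in lhx1-AS minus C. There 1 of 12 mesoderm markers and 1 of 10 maternal and egg RNAs were called higher, and no neural or multiciliated marker was called. The part of such differences in cell makeup in the results below was not tested. In RNA of whole caps, fewer cells of a type and less RNA per cell cannot be told apart.

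Without AcRA, 9 of the 80 genes rose in lhx1-AS caps relative to C, namely pcna, ccna2, cdc6, mcm4, cdt1, mcm2, mcm5, cdc25a and cdk11b, by 1.97-fold to 3.77-fold, and none was called lower. With AcRA, 7 rose in lhx1-AS/AcRA caps relative to AcRA caps, namely cdk9, pcna, cdc6, ccne1, wee1, cdc25a and mcm2, by 1.77-fold to 4.98-fold, and again none was called lower. Of the 9 genes, 6 act in origin licensing or at the replication fork, and of the 7 genes 3 do (pcna, cdc6 and mcm2). These roles hold 16 and 8 of the 80 genes. A gene is called where limma's p, adjusted by Benjamini and Hochberg over the 15503 probe sets tested, is under 0.05. The 9 genes are 11.2% of the 80, where 2.52% of all probe sets were called higher and 4.47% lower in lhx1-AS minus C. The 7 genes are 8.75%, where 2.7% of all probe sets were called higher and 6.94% lower in lhx1-AS/AcRA minus AcRA. Since the genes were chosen with earlier results of these data known, the shares are a description and not a test. For all of these calls the direction was shared by 3 of 3 experiments, and the groups did not overlap. Since the calls were made from the same arrays, this describes them and adds no support, here or for single genes below. How many of all probe sets had groups that did not overlap was not counted. Of the calls, 5 of 9 without AcRA and 3 of 7 with it were kept in all 12 fits that left out 1 array. Without the C array of experiment III, 5 genes were called in lhx1-AS minus C, and in lhx1-AS/AcRA minus AcRA 3 genes were called without AcRA I, without AcRA III or without lhx1-AS/AcRA III. The heatmap of the 80 genes shows every array of each.

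**Figure D1:**
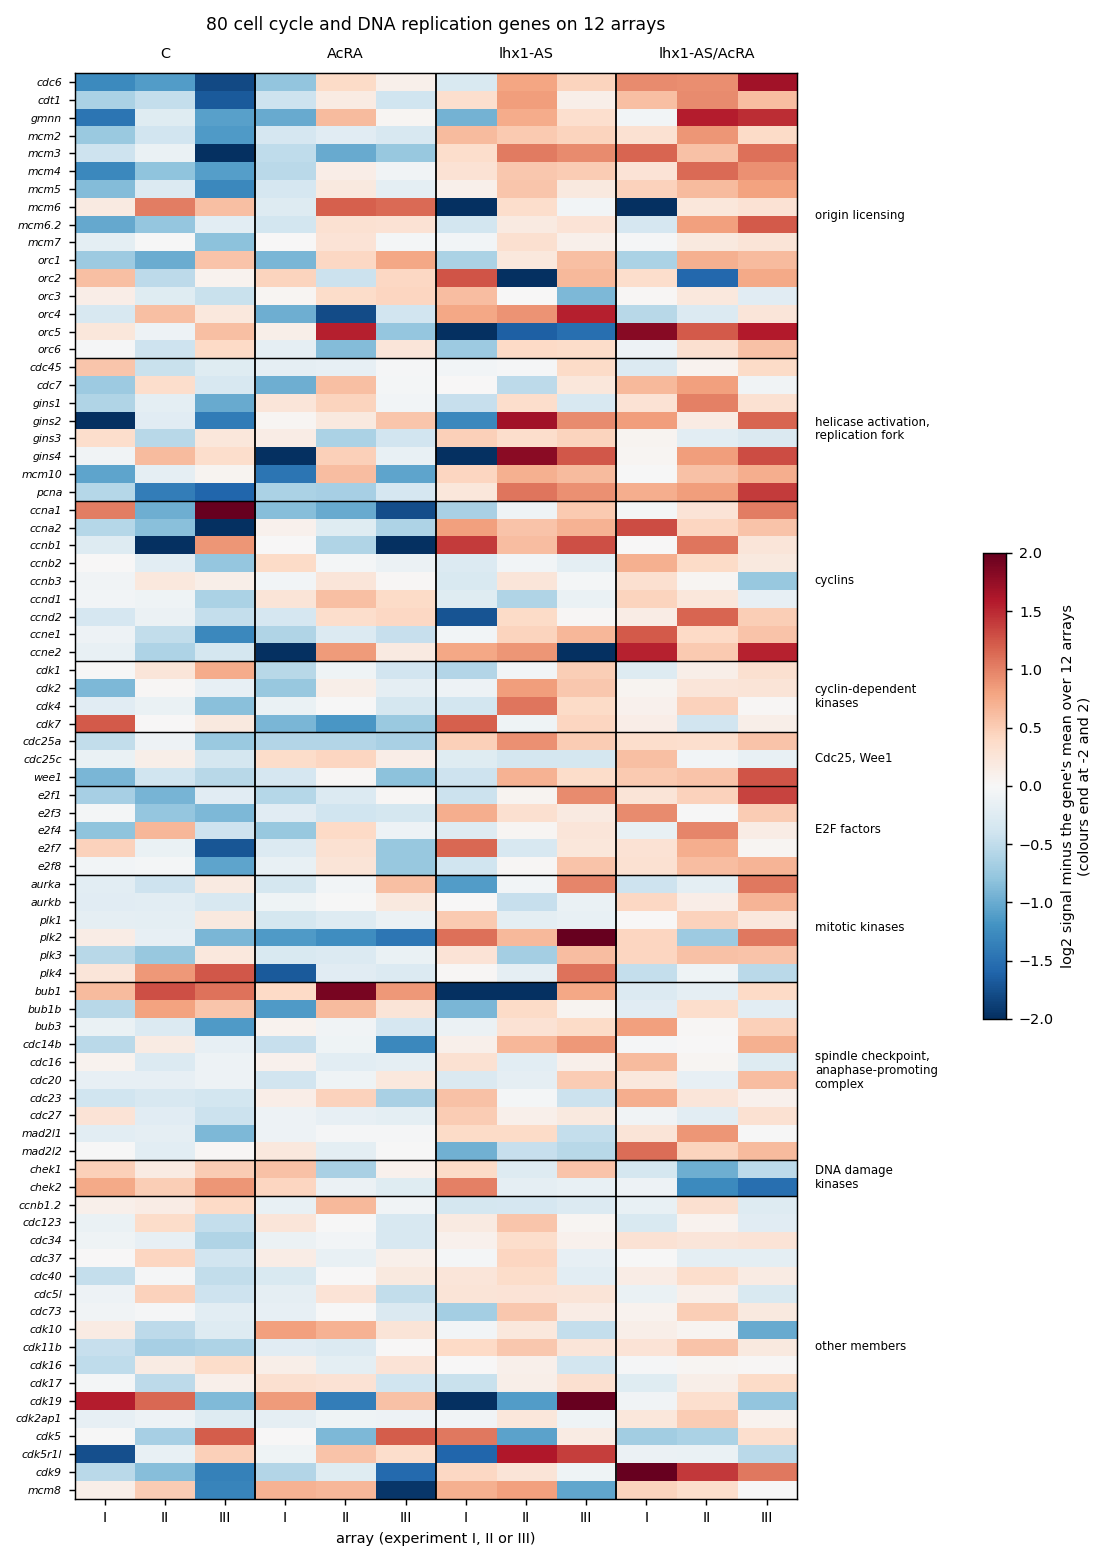
Log2 signal of each of the 80 genes on each of the 12 arrays, minus that gene's mean over the arrays (red above, blue below, colours end at -2 and 2), with arrays in columns by group and experiment and genes in rows by role. In the rows of cdc6, cdt1, mcm2, mcm4, mcm5 and pcna the C arrays are blue and the lhx1-AS/AcRA arrays red, while rows such as mcm6, chek2 and ccna1 run otherwise.

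The median log2 difference of the 80 genes was 0.37 in lhx1-AS minus C and 0.44 in lhx1-AS/AcRA minus AcRA, against -0.01 and 0.02 for all probe sets tested. Of the 80 genes, 59 were above 0 without AcRA and 63 with it. Within single experiments the median of the genes was 0.24, 0.40 and 0.56 for I, II and III without AcRA, and 0.45, 0.32 and 0.46 with AcRA, where the medians of all probe sets lay between -0.06 and 0.07. These 2 comparisons share no array. Across the 80 genes their differences had a Pearson correlation of 0.51 (0.47 across all probe sets), given as a description only, and 54 genes were above 0 in both and 12 below 0 in both. Of all 15503 probe sets, 5582 were above 0 in both and 5487 below 0 in both. Called in both were 4 genes, pcna, cdc6, mcm2 and cdc25a, which are 4 of the 9 and 4 of the 7. Among all 15503 probe sets, 152 were called higher in both.

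The 80 genes, each read by its brightest probe set, are brighter than most probe sets, with 56 above the median mean signal and 38 among the 3876 brightest, and brightness moved with the calls. All probe sets, by contrast, were counted singly. A background of the brightest probe set of every gene name was not made, so the part of that choice in the brightness and in the shares called is not known. Among those 3876, 6.86% of all probe sets were called higher in lhx1-AS minus C and 4.98% in lhx1-AS/AcRA minus AcRA, with medians of 0.13 and 0.08. Of the 38 genes there, 7 were called higher in each comparison, with medians of 0.46 and 0.41.

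Arrays of the same experiment deviated together from their group means, and with the experiment as a block more genes passed. In lhx1-AS minus C 18 of the 80 genes were then called higher and 2 lower, where 7.41% of all probe sets were called higher and 10.4% lower. In lhx1-AS/AcRA minus AcRA 15 genes were called higher and 3 lower with the block, where the shares of all probe sets were 6.98% and 11.9%. With the block, 14 genes were called in both comparisons, and the like count over all probe sets was not made.

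Scaling bears on these splits. When the arrays were scaled to 1 median instead of 1 trimmed mean, the median of all probe sets rose by 0.24 in both injection comparisons, and the lower share of all calls went from 72% to 50.5% in lhx1-AS/AcRA minus AcRA and from 63.9% to 37.7% in lhx1-AS minus C. With quantile normalization, the lower share was 53.2% in lhx1-AS minus C. With the arrays scaled to 1 median, 10 of the 80 genes were called higher with AcRA and 11 without it. The shares of all probe sets called higher were then 4.75% and 5.08%, against 2.7% and 2.52% with the trimmed mean. The median of the 80 genes lay above that of all probe sets by 0.42 with and 0.37 without AcRA, and by 0.31 and 0.20 when 64 was added to every signal.

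**Figure D2:**
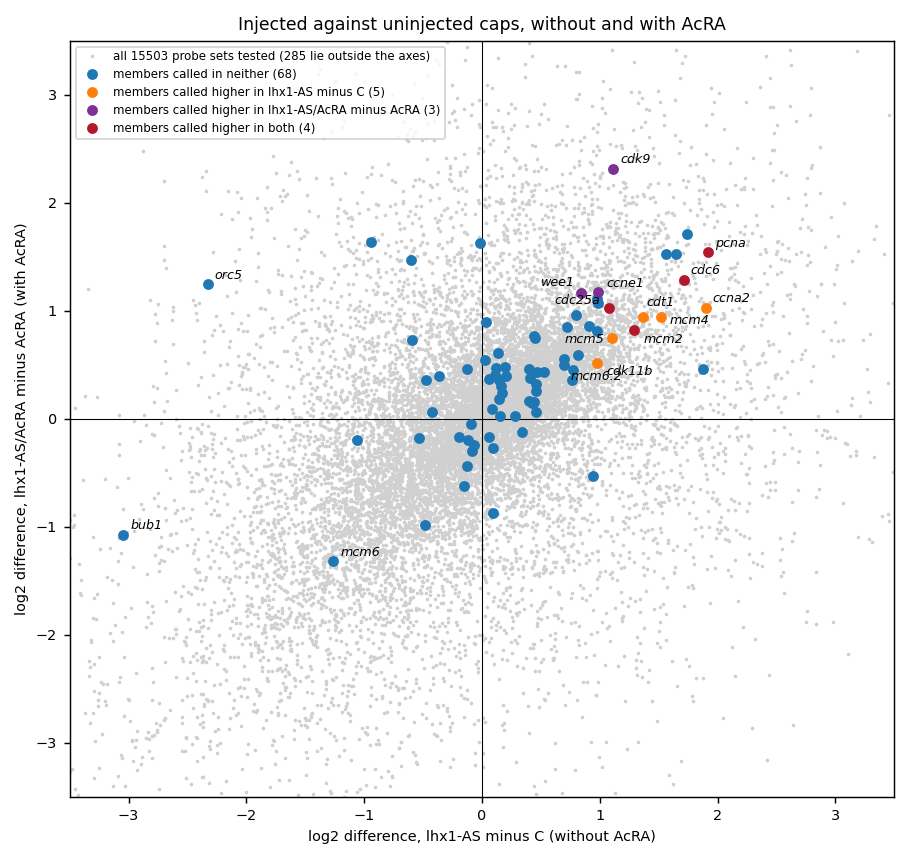
Log2 difference of injected against uninjected caps without AcRA (horizontal) and with AcRA (vertical) for the 80 genes in colour and for all 15503 probe sets in grey, of which 285 lie outside the axes. The 4 genes called in both, pcna, cdc6, mcm2 and cdc25a, lie in the upper right, and mcm6 and bub1 lie below 0 on both axes.

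Origin licensing genes made up the largest share of the genes called without AcRA. Of 16 measured, 5 rose in lhx1-AS minus C (median of the 16, 0.80) and 2 in lhx1-AS/AcRA minus AcRA (median 0.78), with none called lower. The signal of cdc6, which recruits the Mcm helicase to the origin, was 601, 670 and 415 on C arrays and 1175, 2513 and 1978 on lhx1-AS arrays. With AcRA it was 838, 1880 and 1561 in uninjected caps and 2779, 2765 and 4652 in injected caps. No AcRA array reached any lhx1-AS/AcRA array, and no C array reached any lhx1-AS array. The log2 difference was 1.71 (SE 0.35, limma adjusted p = 0.0117) without AcRA and 1.29 (SE 0.35, limma adjusted p = 0.0338) with it. Without the C array of experiment III the former was not called (limma adjusted p = 0.0602), and the latter was lost without AcRA I or III or without any lhx1-AS/AcRA array (highest limma adjusted p 0.158, without AcRA I).

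The helicase subunit gene mcm2 had signals of 931, 1194 and 707 on C and 2419, 2235 and 2129 on lhx1-AS arrays, and of 1230, 1330 and 1243 on AcRA and 1927, 2861 and 2028 on lhx1-AS/AcRA arrays. Each injected group lay wholly above its uninjected group. The log2 difference was 1.29 (SE 0.23, limma adjusted p = 0.00529) without and 0.82 (SE 0.23, limma adjusted p = 0.0396) with AcRA. The call with AcRA was kept in 4 of the 12 fits that left out 1 array (highest limma adjusted p 0.154, without lhx1-AS/AcRA II) and was lost without C I, any AcRA array, lhx1-AS II or III, or lhx1-AS/AcRA II or III. Signals of mcm4, another subunit, were 186, 260 and 213 on C, 555, 666 and 651 on lhx1-AS, 312, 501 and 433 on AcRA and 553, 1001 and 862 on lhx1-AS/AcRA arrays. All lhx1-AS arrays were above all C arrays, and the gene rose by 1.52 on the log2 scale (SE 0.30, limma adjusted p = 0.00803). With AcRA the groups did not overlap either, but the log2 difference of 0.94 did not pass (SE 0.30, limma adjusted p = 0.0607), and it did with the block (limma adjusted p = 0.00494).

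The helicase gene mcm5 had signals of 503, 753 and 373 on C against 985, 1349 and 1047 on lhx1-AS arrays, a log2 difference of 1.10 (SE 0.28, limma adjusted p = 0.0280). With AcRA its signals went from 725, 1045 and 794 to 1259, 1422 and 1598, again with no overlap, for a log2 difference of 0.75 that passed with the block only (limma adjusted p = 0.114 without and 0.0229 with it). The call of mcm5 in lhx1-AS minus C was lost without C I, C III, lhx1-AS II or lhx1-AS III, with the highest limma adjusted p, 0.122, without C III. The loading factor cdt1 had signals of 3172, 3506 and 1522 on C and 6169, 8779 and 5336 on lhx1-AS arrays, for a log2 difference of 1.36 (SE 0.30, limma adjusted p = 0.0150). The lowest lhx1-AS array exceeded the highest C array, and the call was lost without C III or lhx1-AS II (limma adjusted p = 0.0592 and 0.0643). With AcRA cdt1 went from 3661, 5462 and 3707 to 7435, 9470 and 7483, a log2 difference of 0.94 (SE 0.30, limma adjusted p = 0.0637, and 0.00491 with the block). It passed in 5 of 9 alternative settings, the block among them, and in 1 of the 12 fits that left out 1 array. The dimmer cdt1 probe set was called higher with AcRA (1.175, limma adjusted p = 0.0212) and not without it (0.84, limma adjusted p = 0.103).

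The other licensing genes were less even. The signal of gmnn, the Cdt1 inhibitor geminin, was 384, 886 and 495 on C, 525, 1627 and 1084 on AcRA, 544, 1766 and 1330 on lhx1-AS and 1017, 3118 and 2929 on lhx1-AS/AcRA arrays. In every group experiment I was lowest and II highest, the groups overlapped, and no difference passed (limma adjusted p = 0.312 without and 0.238 with AcRA). With the experiment as a block, gmnn was called higher in AcRA minus C (limma adjusted p = 0.0224), lhx1-AS minus C (0.00679), lhx1-AS/AcRA minus AcRA (0.00245) and lhx1-AS/AcRA minus lhx1-AS (0.00701). The dim mcm3 had mean signals of 25.7 ± 15.6 on C and 72.5 ± 17.3 on lhx1-AS, and of 24.7 ± 4.26 on AcRA and 81.2 ± 16.8 on lhx1-AS/AcRA arrays (SD, n = 3), with no overlap and with log2 differences of 1.74 and 1.71 that did not pass (limma adjusted p = 0.106 and 0.104).

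In the frog mcm6 names the maternal form of this helicase subunit and mcm6.2 the zygotic form, by their synonyms in RefSeq. Signals of mcm6 were 420, 747 and 560 on C and 75.9, 472 and 355 on lhx1-AS arrays, and 309, 843 and 810 on AcRA and 69.6, 431 and 450 on lhx1-AS/AcRA arrays. Each experiment was lower after injection, although the groups overlapped, and the log2 differences of -1.26 and -1.32 passed only with the block (limma adjusted p = 0.0303 and 0.0225, against 0.346 and 0.321 without it). Signals of mcm6.2 were 288, 343 and 504 on C, 452, 663 and 704 on lhx1-AS, 454, 727 and 712 on AcRA and 463, 1037 and 1363 on lhx1-AS/AcRA arrays. All 3 experiments were higher after injection in both comparisons, with log2 differences of 0.69 and 0.49, and the former passed with the block (limma adjusted p = 0.0478). The signal of mcm7 differed little with AcRA, at 3358 ± 401 in AcRA and 3496 ± 345 in lhx1-AS/AcRA caps (SD, n = 3), a log2 difference of 0.06 with a 95% interval of -0.46 to 0.58.

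Genes of the origin recognition complex showed no shared direction. The signal of orc1, a subunit that binds ATP, was 42.02, 34.9 and 104 on C and 45.1, 80.2 and 106 on lhx1-AS arrays, and 36.9, 92.4 and 119 on AcRA and 45.1, 114 and 108 on lhx1-AS/AcRA arrays, so experiment I was low in 3 of the groups. Its log2 differences after injection, 0.44 (95% interval -0.98 to 1.86) and 0.15 (-1.27 to 1.57), had intervals wide enough to hold the changes called for the Mcm genes. The dim orc5 was the exception in another comparison. Its signals were 1.74, 4.92 and 5.37 on lhx1-AS arrays and 53.9, 35.6 and 45.5 on lhx1-AS/AcRA arrays, and 17.8, 14.1 and 23.1 on C arrays. It rose with AcRA in injected caps by 3.63 on the log2 scale (SE 0.80, limma adjusted p = 0.00916), a value set by signals near the floor, and by 0.68 when 64 was added to every signal.

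**Figure D3:**
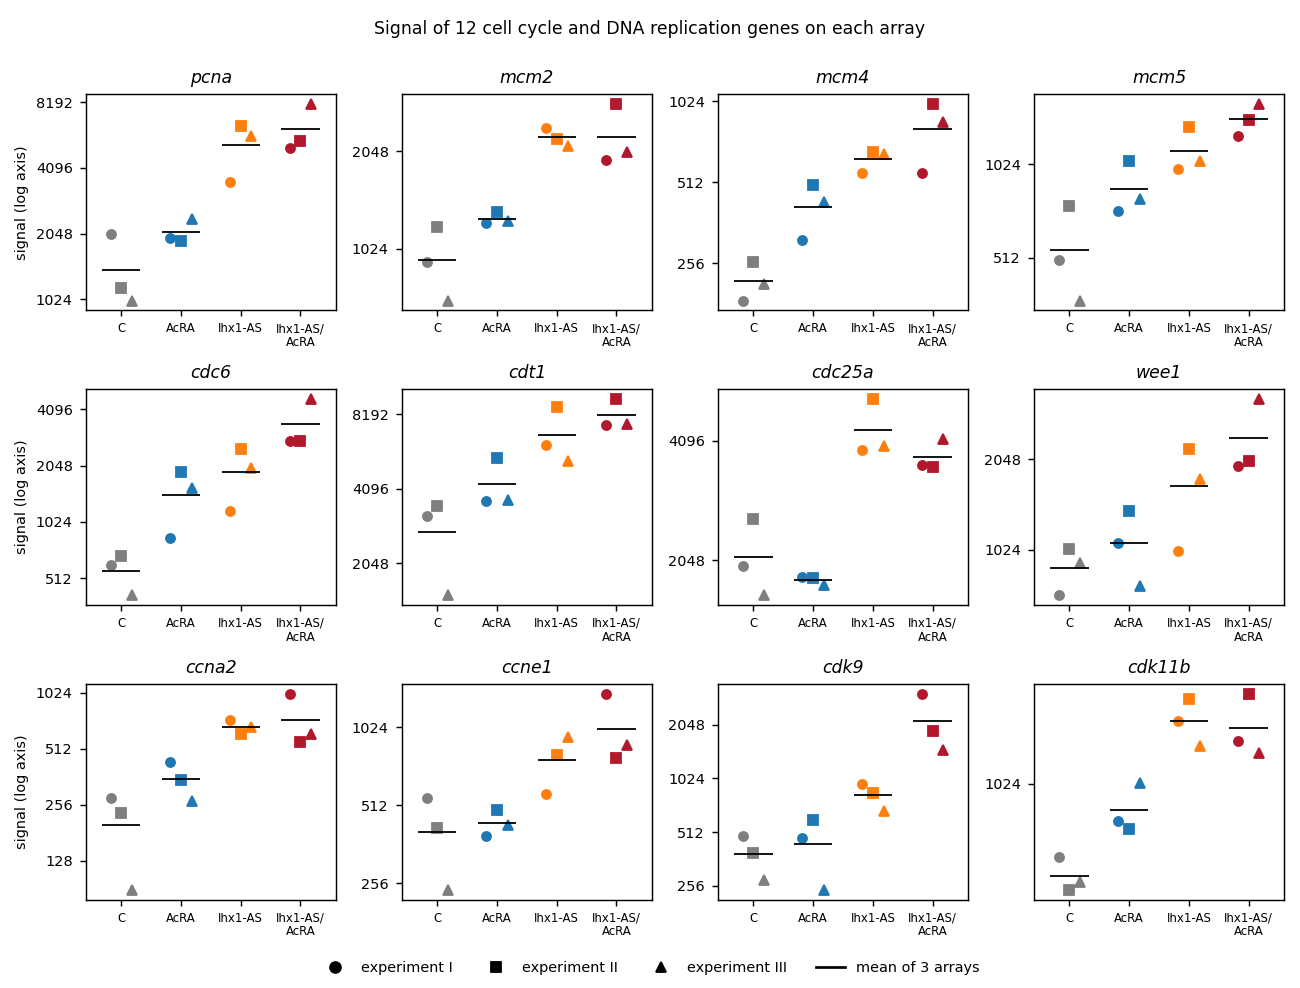
Signal on a log axis of 12 of the called genes on every array, by group, with the experiment as the symbol and the mean of 3 arrays as a line. For pcna, mcm2, cdc6 and cdc25a all arrays of both injected groups lie above the arrays of their own uninjected group, and cdk9 is highest on the lhx1-AS/AcRA arrays.

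At the replication fork, 1 of 8 genes was called in each injection comparison, and it was pcna, the sliding clamp of DNA polymerase. Its signals were 2039, 1159 and 1011 on C and 3534, 6359 and 5710 on lhx1-AS arrays, and 1949, 1904 and 2398 on AcRA and 5034, 5416 and 8011 on lhx1-AS/AcRA arrays. Every array of the injected caps was above every array of the uninjected caps. The rise was 1.92 on the log2 scale (SE 0.29, limma adjusted p = 0.00215) without and 1.54 (SE 0.29, limma adjusted p = 0.00415) with AcRA, and it was called in all 12 fits that left out 1 array.

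The helicase activators did not pass. Signals of cdc45 were 198, 99.1 and 114 on C, 130, 133 and 175 on lhx1-AS, 119, 121 and 133 on AcRA and 111, 142 and 175 on lhx1-AS/AcRA arrays. The 4 groups overlapped, with log2 differences of 0.15 (95% interval -0.72 to 1.01) and 0.18 (-0.68 to 1.04) after injection. The GINS subunit gene gins1 had signals of 362, 484 and 275 on C and 650, 751 and 532 on AcRA arrays, which did not overlap, and 402, 701 and 442 on lhx1-AS and 672, 1112 and 678 on lhx1-AS/AcRA arrays. Its largest difference was thus that of AcRA minus C, 0.81 (SE 0.32, limma adjusted p = 0.201, and 0.0161 with the block). All 8 genes were above 0 in lhx1-AS/AcRA minus AcRA and 7 of 8 in lhx1-AS minus C.

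Of 9 cyclins in the role group, which leaves out ccnb1.2, 1 was called in each injection comparison. Cyclin A2, ccna2, works in DNA synthesis and mitosis, and in the frog it takes over from the embryonic ccna1. Signals of ccna2 were 277, 231 and 89.0 on C and 726, 611 and 665 on lhx1-AS arrays, and 435, 348 and 268 on AcRA and 1011, 556 and 610 on lhx1-AS/AcRA arrays. The injected groups lay above the uninjected ones in both comparisons. The rise without AcRA was 1.90 (SE 0.40, limma adjusted p = 0.0122). The difference of 1.03 with AcRA did not pass without the block and did with it (limma adjusted p = 0.133 and 0.0259). It also passed in 1 of the 12 fits that left out 1 array. The S-phase cyclin gene ccne1 had signals of 548, 419 and 241 on C, 566, 800 and 936 on lhx1-AS, 391, 490 and 429 on AcRA and 1382, 778 and 874 on lhx1-AS/AcRA arrays. It rose with AcRA by 1.17 (SE 0.33, limma adjusted p = 0.0402), and the difference without AcRA of 0.98 did not pass (limma adjusted p = 0.0952, and 0.0453 with the block). The call with AcRA was lost without any 1 of 7 arrays, C II, AcRA I, AcRA II, AcRA III, lhx1-AS II, lhx1-AS/AcRA I or lhx1-AS/AcRA III, at most to a limma adjusted p of 0.149 without lhx1-AS/AcRA I.

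No B-type cyclin, the cyclins of mitosis, was called by the probe set that stood for it. Signals of ccnb2 were 2123 ± 548 in C, 2300 ± 177 in lhx1-AS, 2761 ± 535 in AcRA and 3535 ± 644 in lhx1-AS/AcRA caps (SD, n = 3), and its log2 difference in lhx1-AS minus C was 0.15 with a 95% interval of -0.40 to 0.69. Those of ccnb1 were dim, at 13.7, 4.09 and 30.3 on C, 43.1, 25.0 and 40.2 on lhx1-AS, 16.5, 10.8 and 2.60 on AcRA and 16.5, 34.5 and 19.3 on lhx1-AS/AcRA arrays, and its log2 differences of 1.56 and 1.52 had an SE of 0.91. The gene ccnb1.2, counted by role among the other members, was bright. Its mean signals were 2308 on C, 1589 on lhx1-AS, 2263 on AcRA and 1968 on lhx1-AS/AcRA arrays. After injection ccnb1.2 differed by -0.53 without and -0.18 with AcRA (limma adjusted p = 0.21 and 0.742). The D-type cyclin gene ccnd1, which links growth signals to the cycle, had signals of 3428, 3357 and 2317 on C and 4274, 5418 and 4658 on AcRA arrays, and 3040, 2346 and 3257 on lhx1-AS and 4889, 4203 and 3186 on lhx1-AS/AcRA arrays. AcRA arrays were above all C arrays, with a log2 difference of 0.67 that did not pass (SE 0.23, limma adjusted p = 0.122), and after injection it differed by -0.07 (0.17 with the arrays scaled to 1 median) and -0.24, with overlapping groups.

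Among the Cdc25 phosphatases and Wee1, 1 of 3 genes rose without AcRA and 2 of 3 with it. The phosphatase gene cdc25a, which releases Cdk1 and Cdk2 from inhibition, had signals of 1977, 2604 and 1671 on C and 3875, 5228 and 3976 on lhx1-AS arrays, and 1855, 1850 and 1778 on AcRA and 3561, 3526 and 4131 on lhx1-AS/AcRA arrays. Every injected array was above every uninjected array. The gene rose by 1.08 (SE 0.21, limma adjusted p = 0.00754) and 1.03 (SE 0.21, limma adjusted p = 0.00592), in all fits that left out 1 array. A dim cdc25a probe set, with a mean signal of 34.5 on C arrays, was called in neither comparison. It differed by -0.76 without and 1.12 with AcRA (limma adjusted p = 0.755 and 0.621). The opposing kinase gene wee1 had signals of 721, 1032 and 924 on C and 1015, 2205 and 1762 on lhx1-AS arrays, and 1077, 1376 and 772 on AcRA and 1948, 2025 and 3249 on lhx1-AS/AcRA arrays. It rose with AcRA by 1.16 (SE 0.32, limma adjusted p = 0.0336) with no overlap, a call lost without AcRA I, AcRA III, lhx1-AS/AcRA II or lhx1-AS/AcRA III, at most to 0.149 without the last. In lhx1-AS minus C the wee1 difference of 0.84 did not pass without the block (limma adjusted p = 0.134), and the groups overlapped. It passed with the block and in 1 of the 12 fits that left out 1 array. There the brighter wee1.S probe set differed by -0.18 and the dimmer by 2.36 (limma adjusted p = 0.727 and 0.114). The phosphatase gene cdc25c differed by -0.19 and -0.17 after injection, with 95% intervals of -0.73 to 0.34 and -0.71 to 0.36.

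Neither cdk1, the mitotic kinase, nor cdk2 and cdk4, the kinases of the G1 and S phases, were called without the block in any comparison by the probe set that stood for the gene. Signals of cdk1 were 1946, 2329 and 3275 on C, 1341, 1859 and 1514 on AcRA, 1309, 1899 and 2780 on lhx1-AS and 1650, 2143 and 2445 on lhx1-AS/AcRA arrays. The C arrays were above the AcRA arrays, with a log2 difference of -0.66 (SE 0.29, limma adjusted p = 0.276, and 0.0399 with the block). The dimmer cdk1.S probe set was called lower there (log2 difference -0.98, limma adjusted p = 0.0467), with mean signals of 2075 on C and 1097 on AcRA arrays. Signals of cdk2 were 68.1, 129 and 113 on C and 118, 225 and 185 on lhx1-AS arrays, higher in each experiment with overlapping groups (log2 difference 0.77, SE 0.41, limma adjusted p = 0.288). Those of cdk4 were 5107 ± 1253 on C and 9177 ± 4375 on lhx1-AS arrays (SD, n = 3), with overlap (log2 difference 0.76, limma adjusted p = 0.15). With the block cdk4 was called higher there, and 1 of the 4 cyclin-dependent kinases was called higher in lhx1-AS/AcRA minus AcRA. The kinase cdk7, which activates other Cdk enzymes and belongs to transcription factor TFIIH, was the 1 gene called lower in AcRA minus C. Its signals were 1175, 503 and 570 on C and 264, 223 and 299 on AcRA arrays. A dimmer cdk7 probe set went the other way without being called (log2 difference 0.42, limma adjusted p = 0.916), with mean signals of 26.4 on C and 35.5 on AcRA arrays.

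None of the 6 mitotic kinases was called in any comparison, nor any of the 10 genes of the spindle checkpoint and anaphase-promoting complex in the injection comparisons, with medians of 0.10 and 0.28 without AcRA and 0.42 and 0.34 with it. With the block, plk2 was called higher in lhx1-AS minus C (log2 difference 1.65, limma adjusted p = 0.0393), plk4 lower in AcRA minus C (-1.51, limma adjusted p = 0.0255), and aurkb higher in lhx1-AS/AcRA minus lhx1-AS (0.60, limma adjusted p = 0.0300). Of the spindle checkpoint genes, mad2l2 was called higher with the block in lhx1-AS/AcRA minus AcRA (0.73, limma adjusted p = 0.0465) and bub1 lower in lhx1-AS minus C. Signals of plk1, which drives entry into mitosis, were 985, 973 and 1276 on C, 1602, 975 and 1008 on lhx1-AS, 876, 930 and 1022 on AcRA and 1122, 1538 and 1288 on lhx1-AS/AcRA arrays. The groups overlapped without AcRA and not with AcRA, with log2 differences of 0.12 (95% interval -0.44 to 0.69) and 0.47 (-0.09 to 1.04). The spindle kinase gene aurka had signals of 358, 309 and 468 on C, 191, 400 and 812 on lhx1-AS, 326, 397 and 630 on AcRA and 312, 362 and 861 on lhx1-AS/AcRA arrays. It was highest in experiment III in all 4 groups, with log2 differences of 0.09 in both comparisons and an SE of 0.49. Signals of cdc20, the activator of the anaphase-promoting complex, were 3334, 3334 and 3488 on C, 3061, 3316 and 5299 on lhx1-AS, 2882, 3548 and 4321 on AcRA and 4334, 3336 and 5746 on lhx1-AS/AcRA arrays, with log2 differences of 0.16 and 0.30 and overlapping groups. The checkpoint kinase gene bub1b had signals of 152, 388 and 325 on C, 117, 290 and 232 on lhx1-AS, 101, 343 and 266 on AcRA and 189, 284 and 193 on lhx1-AS/AcRA arrays, and its differences of -0.43 and 0.06 had an SE of 0.51. The related kinase gene bub1 had signals of 73.5, 116 and 99.9 on C and 2.09, 8.89 and 81.0 on lhx1-AS arrays, so that its log2 difference of -3.05 (limma adjusted p = 0.0734, and 0.0228 with the block) came from experiments I and II. Whether licensing and mitotic genes differ from each other in their change was not tested.

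All 5 E2F factors measured were above 0 in both injection comparisons, with medians of 0.80 and 0.75, and none was called. The activator e2f3 came nearest, with signals of 703, 426 and 390 on C and 1203, 903 and 816 on lhx1-AS arrays, and 619, 549 and 571 on AcRA and 1401, 722 and 1035 on lhx1-AS/AcRA arrays. Neither pair of groups overlapped. The log2 differences of 0.97 (SE 0.30, limma adjusted p = 0.0666) and 0.81 (SE 0.30, limma adjusted p = 0.116) passed with the block (limma adjusted p = 0.00624 and 0.0144). Signals of e2f1, also an activator, were 65.0, 53.9 and 88.6 on C, 76.97, 107 and 198 on lhx1-AS, 69.4, 85.4 and 105 on AcRA and 123.3, 142 and 262 on lhx1-AS/AcRA arrays, higher after injection in each experiment but not past the threshold (limma adjusted p = 0.341 and 0.235).

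The 2 DNA damage kinases had lower means on the lhx1-AS/AcRA arrays than in the other groups. Signals of chek1, which slows the cycle when replication stalls, were 398, 321 and 406 on C, 428, 182 and 303 on AcRA, 374, 238 and 424 on lhx1-AS and 225, 146 and 199 on lhx1-AS/AcRA arrays. Those of chek2 were 1077, 889 and 1172 on C, 852, 587 and 538 on AcRA, 1280, 561 and 570 on lhx1-AS and 592, 264 and 224 on lhx1-AS/AcRA arrays. The groups overlapped in lhx1-AS/AcRA minus AcRA for both, and neither was called in any comparison. In lhx1-AS minus C chek1 differed by -0.15, and by 0.05 with quantile normalization and 0.09 with the arrays scaled to 1 median. With the block, chek2 was called lower in lhx1-AS/AcRA minus AcRA (log2 difference -0.98, limma adjusted p = 0.0174), and both were called lower in lhx1-AS/AcRA minus lhx1-AS (-0.85 and -1.18, limma adjusted p = 0.0321 and 0.00677).

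Called genes with other known work were cdk9 and cdk11b. The kinase cdk9 releases paused RNA polymerase, and cdk11b acts in transcription and splicing. Signals of cdk9 were 488, 393 and 278 on C, 474, 599 and 242 on AcRA, 948, 847 and 669 on lhx1-AS and 3053, 1888 and 1471 on lhx1-AS/AcRA arrays. The arrays of the injected and induced caps were above all others. It rose by 2.32 (SE 0.36, limma adjusted p = 0.00111) in lhx1-AS/AcRA minus AcRA, called in all fits that left out 1 array, and in lhx1-AS minus C the difference of 1.11 passed with the block only (limma adjusted p = 0.0823 without and 0.00479 with it). Signals of cdk11b were 744, 643 and 666 on C and 1348, 1484 and 1208 on lhx1-AS arrays, 0.97 higher on the log2 scale (SE 0.21, limma adjusted p = 0.0143, and over 0.05 without C III or lhx1-AS II). They were 870, 842 and 1028 on AcRA and 1237, 1520 and 1173 on lhx1-AS/AcRA arrays, where the difference of 0.52 did not pass (limma adjusted p = 0.158).

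**Figure D4:**
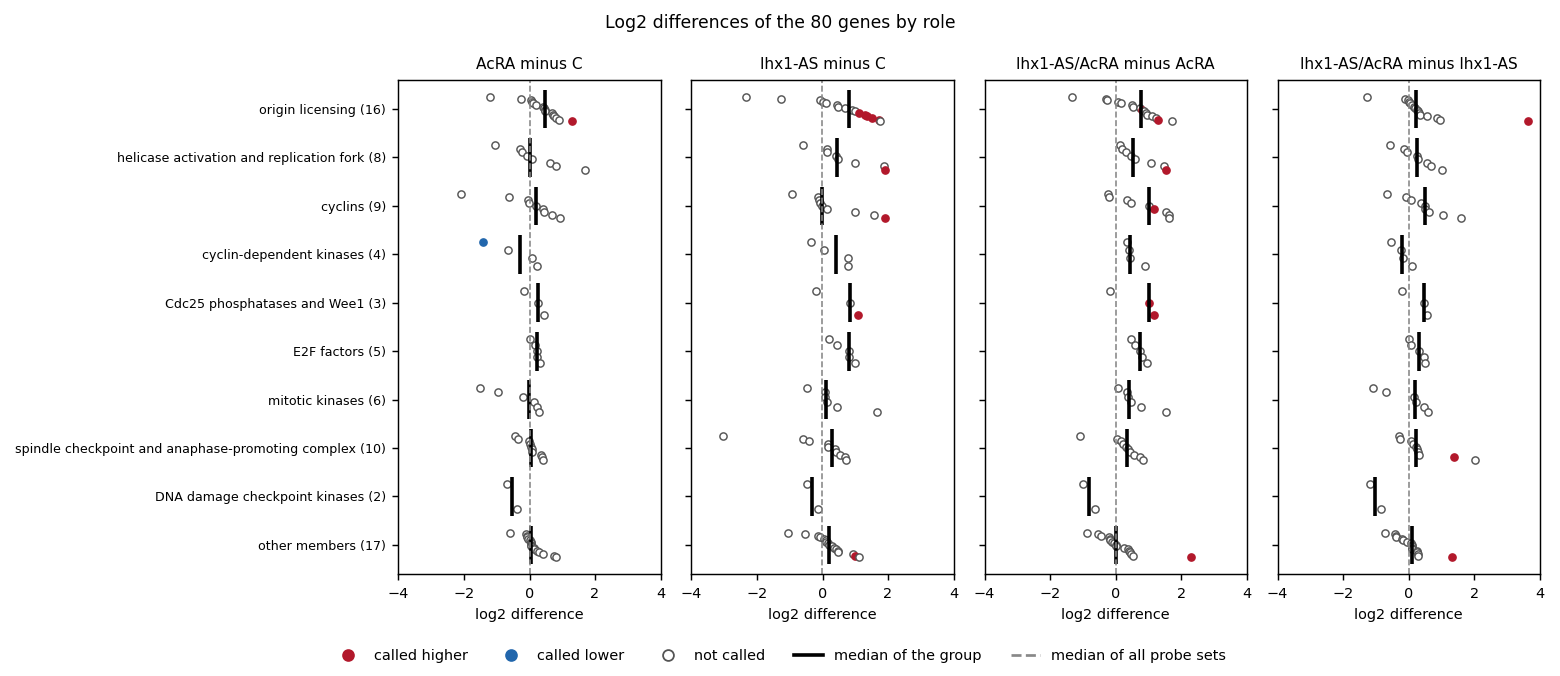
Log2 difference of each of the 80 genes by role (number of genes in parentheses) in 4 comparisons, with called genes filled, the median of each role as a black line and the median of all probe sets dashed. In lhx1-AS minus C, 5 of the 16 licensing genes are filled, and no mitotic kinase is filled in any panel.

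In AcRA minus C, 1 of the 80 rose, cdc6 (log2 difference 1.29, SE 0.35, limma adjusted p = 0.0466), and 1 fell, cdk7, by 1.42 (SE 0.37, limma adjusted p = 0.0374), where 3.09% of all probe sets were called higher and 2.62% lower. The median of the 80 genes was 0.09, against 0.01 for all. Neither call was kept in all fits that left out 1 array. That of cdc6 was lost in 8 of 12, without each C array, AcRA II or III, lhx1-AS III, or lhx1-AS/AcRA I or II (highest limma adjusted p 0.210, without AcRA II), and that of cdk7 in 6 of 12, without C I or III, any AcRA array or lhx1-AS III (0.189 without C I). With the block 6 were called higher and 5 lower, where the shares of all probe sets were 5.29% and 5.14%. Of these, 5 of the 6 that were higher are licensing genes, cdc6, mcm4, mcm5, cdt1 and gmnn, and the other is gins1. The 5 lower ones were cdk7, cdk1, ccna1, plk4 and orc4. The signal of ccna1, the embryonic cyclin A1, was 575, 143 and 1671 on C arrays and 156, 140 and 82.2 on AcRA arrays, so that its log2 difference of -2.09 came from experiments I and III.

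In injected caps, AcRA raised 3 of the 80 genes, orc5, mad2l2 and cdk9, with none called lower, where 4% of all probe sets were called higher and 4.09% lower in lhx1-AS/AcRA minus lhx1-AS. With the block, 7 were called higher and 3 lower, where the shares were 6.34% and 6.64%. The gene mad2l2 encodes a relative of Mad2 that is also part of a DNA repair polymerase. Its signals were 416, 361 and 427 on C, 485, 364 and 416 on AcRA, 214, 303 and 284 on lhx1-AS and 906, 570 and 647 on lhx1-AS/AcRA arrays, so the lowest and the highest arrays are those of the injected caps. It rose by 1.39 (SE 0.27, limma adjusted p = 0.00401), and cdk9 by 1.33 (SE 0.36, limma adjusted p = 0.0360). The call of cdk9 was lost without any lhx1-AS array or without lhx1-AS/AcRA I or II, at most to a limma adjusted p of 0.166 without lhx1-AS/AcRA I.

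Whether the AcRA response itself differed between injected and uninjected caps was tested as the difference of the 2 responses. None of the 80 genes passed by limma, where 0.168% of all probe sets were called higher and 0.271% lower. At an unadjusted limma p under 0.05, 4 of the 80 were higher and 0 lower, namely orc5, ccna1, mad2l2 and cdk9. The share of all probe sets at that unadjusted threshold was not counted. For cdk9 the difference was 1.20 (SE 0.52, limma adjusted p = 0.660), and for mad2l2 1.33 (SE 0.39, limma adjusted p = 0.215). By the same measure, the injection effect with AcRA was not shown to differ from that without it for any of the 80. For cdc6, mcm2 and pcna, the comparisons side by side gave 1.71 and 1.29, 1.29 and 0.82, and 1.92 and 1.54.

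Second probe sets of the same genes were read as a check, since the .L and .S homeologs of the frog are nearly identical in sequence and a probe set can bind both. The .S probe sets of pcna and cdc6 were called higher in both injection comparisons, as the .L ones were. For pcna.S the log2 differences without and with AcRA were 2.05 and 1.97, and for cdc6.S 1.44 and 1.57. In AcRA minus C cdc6.S was not called (0.25, limma adjusted p = 0.871), although cdc6.L was. The probe set of mcm4.S was called in both as well (2.10 and 1.60), and also in AcRA minus C (1.95, limma adjusted p = 0.0121) and lhx1-AS/AcRA minus lhx1-AS (1.45, limma adjusted p = 0.0494), while mcm4.L was called in lhx1-AS minus C only. The probe set of gmnn.L was called higher in AcRA minus C (1.20, limma adjusted p = 0.0144), lhx1-AS minus C (0.98), lhx1-AS/AcRA minus AcRA (1.15) and lhx1-AS/AcRA minus lhx1-AS (1.37), although the brighter gmnn.S was called in none. For mcm6.2, 1 of the 3 probe sets, a .S one, was called higher in lhx1-AS minus C (1.56, limma adjusted p = 0.00493) and in AcRA minus C (1.16, limma adjusted p = 0.0213).

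For other genes the probe sets disagreed. The probe set of ccnd1.S rose in lhx1-AS/AcRA minus AcRA by 1.43 (limma adjusted p = 0.00808), with mean signals of 829 and 2353, where the brighter ccnd1.L differed by -0.24. That of ccna2.S was not called in lhx1-AS minus C, where ccna2.L was. That of ccnb3.S fell by 1.05 in lhx1-AS minus C (limma adjusted p = 0.0202), with mean signals of 737 and 359, while neither probe set of ccnb3.L was called. That of ccna1.S was called lower in AcRA minus C (-2.60, limma adjusted p = 0.0333), where the probe set that stood for ccna1 was not. With all probe sets read, a gene counting as called where any was, 12 genes were called in lhx1-AS/AcRA minus AcRA, 7 in AcRA minus C and 6 in lhx1-AS/AcRA minus lhx1-AS, and 1, wee1, for the difference of responses. All of these were higher but ccna1, cdk1 and cdk7 in AcRA minus C. In lhx1-AS minus C that rule added gmnn and mcm6.2, higher, and ccnb3, lower. A gene with more probe sets has more chances to be called so, and the like count over all genes was not made. The genes named in these 2 paragraphs on second probe sets were chosen after their values were seen.

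**Figure D5:**
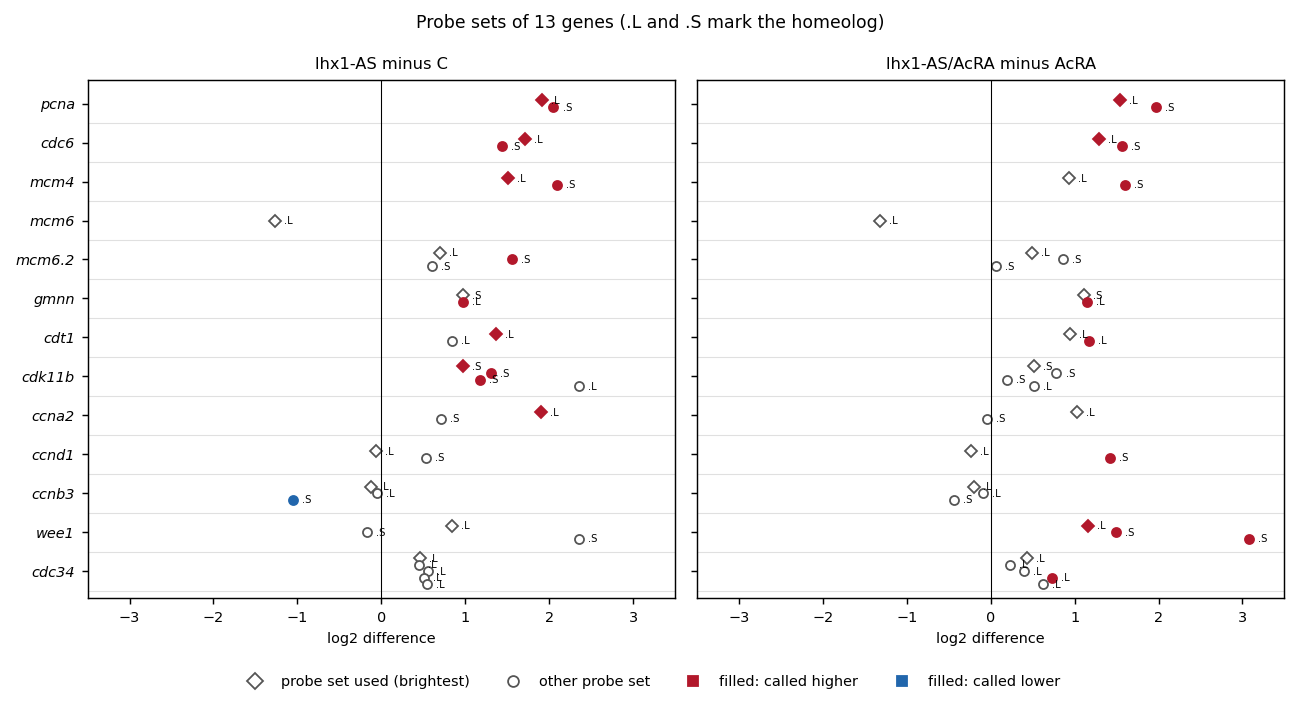
Log2 difference of every probe set of 13 genes in both injection comparisons, with the probe set used as a diamond, others as circles, called ones filled, and the homeolog beside each point. Both homeologs of pcna and cdc6 are filled in both panels, whereas for ccnd1 and ccnb3 the .L and .S probe sets differ in call.

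The rest of the pathway was read from a list of 142 further genes of replication, mitosis and checkpoints, of which 103 were measured. Of these, 1 was called higher and 2 lower in lhx1-AS minus C, and 2 higher and 3 lower in lhx1-AS/AcRA minus AcRA, with medians of 0.17 and 0.22. The shares called higher, 0.971% and 1.94%, were below the 2.52% and 2.7% of all probe sets. With the block, 14 of the 103 were called higher and 10 lower in lhx1-AS minus C, where 7.41% of all probe sets were called higher and 10.4% lower. In lhx1-AS/AcRA minus AcRA 10 of the 103 were then higher and 8 lower, where the shares were 6.98% and 11.9%. The shares called higher were thus below those of all probe sets without the block and above them with it. Higher were cks2, a partner of Cdk1, without AcRA (log2 difference 1.15, SE 0.30, limma adjusted p = 0.0338), and tipin, which protects the stalled fork, and anapc11, a subunit of the anaphase-promoting complex, with AcRA (1.29 and 0.69). Lower in both were uhrf1, which passes DNA methylation on to the new strand, and tacc3, a spindle protein that in the frog also keeps maternal RNAs silent. Signals of uhrf1 were 790, 966 and 678 on C and 251, 371 and 323 on lhx1-AS arrays, and 651, 1020 and 707 on AcRA and 155, 317 and 268 on lhx1-AS/AcRA arrays. Every injected array was below every uninjected array, with log2 differences of -1.37 (SE 0.32, limma adjusted p = 0.0203) and -1.72 (SE 0.32, limma adjusted p = 0.00349). For tacc3 the differences were -1.34 and -1.68, and the mitotic kinesin kif15 was lower with AcRA (-1.41, limma adjusted p = 0.0492). The call of kif15 was lost with quantile normalization, with the arrays scaled to 1 median and in 9 of the 12 fits that left out 1 array (all but those without lhx1-AS I, lhx1-AS III or lhx1-AS/AcRA I). In lhx1-AS minus C the calls were lost without C I, C III, lhx1-AS II or lhx1-AS III for cks2, without these or AcRA III for tacc3 and without C I, C II or lhx1-AS III for uhrf1, and that of anapc11 with AcRA without AcRA II or III or lhx1-AS/AcRA I or III. Quantile normalization also lost the calls of cks2 and tacc3 in lhx1-AS minus C, and scaling to 1 median those of tacc3 and uhrf1 there. For top2a, the topoisomerase that untangles replicated DNA, signals were 433, 816 and 353 on C and 822, 1003 and 908 on lhx1-AS arrays, and the log2 difference of 0.86 did not pass (SE 0.28, limma adjusted p = 0.0833). In lhx1-AS/AcRA minus lhx1-AS, hmmr, skp2 and tipin rose by 1.55, 1.09 and 1.01 (limma adjusted p = 0.0232, 0.0316 and 0.0389) and nek2 fell by 1.08 (limma adjusted p = 0.0413), where the calls were lost in 3, 4, 6 and 7 of the 12 fits that left out 1 array, in each case including those without lhx1-AS/AcRA II or III. That of nek2 was also lost with quantile normalization and that of skp2 with the arrays scaled to 1 median. In AcRA minus C none of the 103 was called by limma (6 were higher and 1 lower at an unadjusted p under 0.05). How many of all probe sets passed that unadjusted threshold was not counted, so the split is not read as a leaning.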

How the data were processed

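RNA of animal caps was measured on 12 arrays, 3 in each of 4 groups, and the labels gave the groups and experiment numbers. The authors deposited an intensity for each probe set, a linear signal quantified and normalized with GCOS (version not given in the sources used here), without detection calls and without pooling of replicates, and the precision is limited by the number of arrays. Of these signals, 555 (0.298%) were under 1 and were set to 1 before log2 was taken, so differences of dim probe sets depend on that floor. The 108 control probe sets were left out, and 15503 of 15611 were tested. By the annotation of the array, 9304 probe sets have 1 gene symbol, 195 more than 1, and 6112 have none.

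A model of the 4 group means with a variance trend was fitted in limma 3.58.1 (R 4.3.3), with 5 comparisons and Benjamini-Hochberg adjustment over all probe sets tested at 0.05. Figures were drawn with matplotlib 3.10.9 in Python 3.11.15. Correlations of deviations from the group means were 0.152 to 0.269 for 18 pairs of arrays of the same experiment and -0.19 to -0.00368 for the other 36, so the experiments pair the arrays.

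The genes, the role groups, the list of 142 other cell cycle genes and the marker lists (epidermis, multiciliated cells, mesoderm, organizer, endoderm, neural, and maternal and egg RNAs) were chosen with earlier results of these data known. Described were all genes called in a comparison, at most 10 per direction, members of the role groups, and at most 3 other cell cycle genes per comparison and direction. As alternatives, arrays were normalized by quantiles or scaled to 1 median, 16 or 64 was added to the signal, the dimmest 40% were left out, the fit was made with the experiment as a block, without a variance trend or on 2 groups at a time, and other readings were the methods' t-test, all probe sets of a gene, other membership, and 1 array left out in turn. Promoter motifs and sequences were not analysed here.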

Additional observations from a re-analysis of the deposited data

Results flagged for a closer look

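In 1 of the 3 probe sets of wee1, a .S one that did not stand for the gene, the AcRA response differed between injected and uninjected caps by 1.66 on the log2 scale (SE 0.331, limma adjusted p = 0.0428), by a test of the difference itself. Its signals were 682, 621 and 612 on C, 860, 1194 and 889 on AcRA, 646, 646 and 431 on lhx1-AS and 2576, 2653 and 2950 on lhx1-AS/AcRA arrays. The lhx1-AS/AcRA arrays were above all others. The response was 0.605 in uninjected caps (limma adjusted p = 0.194) and 2.27 in injected caps (limma adjusted p = 2.2e-05). The difference was called with the experiment as a block (limma adjusted p = 0.00966) and not with quantile normalization (0.0732), with arrays scaled to 1 median (0.0941) or without a variance trend (0.155). Of the 12 fits that left out 1 array it was called in that without lhx1-AS I (0.0445), and the highest p was 0.129, without C I. The brighter wee1.L probe set did not show it (log2 difference 0.32, limma adjusted p = 1). This probe set was singled out after its values were seen.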

How the results depend on the processing

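With the experiment as a block, 1617 probe sets were called in AcRA minus C, 2933 in lhx1-AS/AcRA minus AcRA, 2758 in lhx1-AS minus C, 2013 in lhx1-AS/AcRA minus lhx1-AS and 239 for the difference of responses, against 885, 1495, 1084, 1254 and 68 without it. In the first 4 of these comparisons the block gave 11, 18, 20 and 10 of the 80 genes and 6, 18, 24 and 8 of the 103 other cell cycle genes, against 2, 7, 9 and 3 and 0, 5, 3 and 4 without it. With arrays scaled to 1 median, the median of the 80 genes was 0.683 with and 0.605 without AcRA, 1 gene was called in AcRA minus C, and 8 other genes in lhx1-AS/AcRA minus AcRA. With 64 added to the signal these medians were 0.326 and 0.199, and the difference of responses was called for 170 probe sets (116 with 16 added).

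Without a variance trend 0 genes were called in AcRA minus C and 3 in lhx1-AS/AcRA minus AcRA, 570 probe sets in lhx1-AS minus C and 20 for the difference of responses, and of the other genes 3 in lhx1-AS/AcRA minus AcRA and 0 both in lhx1-AS minus C and with AcRA in injected caps. A fit of only the groups compared called 1 gene in AcRA minus C and 1 other gene in lhx1-AS/AcRA minus lhx1-AS. The methods' t-test after adjustment called 0 of the 80 and 0 of the other genes in all comparisons, and 60, 0, 0 and 46 probe sets in the order above. At an unadjusted 0.05 it called 2307, 3111, 2615 and 2093 probe sets, 10, 22, 16 and 8 genes and 7, 18, 19 and 11 other genes. With the dimmest 40% left out, 5 other genes were called in lhx1-AS minus C. With all probe sets of a gene 7, 12 and 6 genes were called in AcRA minus C, lhx1-AS/AcRA minus AcRA and lhx1-AS/AcRA minus lhx1-AS, and 1 for the difference. The like count over all genes was not made. With genes such as cdk7, cdk9 and cdk11b left out for other known roles, but cdc34, cdc40 and cdc123 kept, 1 of 66 was called in AcRA minus C. The cause of these changes was not tested.

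Leaving out 1 array gave, in the order above with the difference last, 608 to 1020, 809 to 1728, 462 to 1254, 998 to 1226 and 34 to 115 probe sets, 0 to 2, 3 to 10, 5 to 11, 2 to 3 and 0 to 0 genes, 0 to 1, 3 to 8, 0 to 6, 0 to 4 and 0 to 0 other genes, and medians of 0.0827 to 0.188, 0.367 to 0.496, 0.238 to 0.389, 0.108 to 0.238 and -0.0857 to 0.0539. The lowest probe set counts came without AcRA II, AcRA I, C III, lhx1-AS I and AcRA III.

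Differences near 0 changed sign. In lhx1-AS/AcRA minus AcRA, aurka (-0.367 to 0.365 over the fits without 1 array) was -0.121 without AcRA I and -0.367 without lhx1-AS/AcRA III, bub1b (-0.469 to 0.411) -0.469 without AcRA I and -0.134 without lhx1-AS/AcRA II, and orc1 (-0.352 to 0.584) -0.352, -0.084 and -0.0487 without AcRA I, lhx1-AS/AcRA II and lhx1-AS/AcRA III. In lhx1-AS minus C, aurka (-0.432 to 0.612) was -0.049 without C II and -0.432 without lhx1-AS III, cdc20 (up to 0.309) -0.087 without lhx1-AS III, cdc45 (up to 0.445) -0.054 without C II and plk1 (up to 0.249) -0.109 without lhx1-AS I. There ccnd1 (from -0.25) was 0.174 with arrays scaled to 1 median and 0.0327, 0.0177 and 0.0748 without C I, C II and lhx1-AS II, and chek1 (from -0.321) was 0.0494 with quantile normalization, 0.0884 with arrays scaled to 1 median and 0.0956 without lhx1-AS II.

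The test of promoter motifs was not run, since promoter sequences were not used here. With 3 arrays a group, differences under about 1 on the log2 scale often did not pass, and dim genes such as ccnb1 and orc5 rest on signals near the floor.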
